A study of Mus musculus with 10 samples.

Results

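The enteric neuron and glia genes described here are 8 markers of the nervous system of the gut wall, chosen by name: Elavl4, Ret, Uchl1, Snap25, Vip and Nos1 for neurons, and Sox10 and S100b for glia. They are 8 of the 55414 genes counted and 8 of the 18654 genes with enough reads to be tested. RNA of jejunum, the stretch of small intestine between duodenum and ileum, was sequenced in 10 libraries from male C57BL/6J mice that all carried RetSat flox/flox alleles. The 5 RetSat ko libraries came from mice with the villin-Cre-ERT2 transgene (+) and the 5 control libraries from mice without it (-). All mice received tamoxifen for 5 days by intraperitoneal injection followed by 14 weeks of a high-fat diet (60% of energy as fat), so neither group was untreated or fed a plain diet. Their age was not given in the sources used here. The villin promoter drives the tamoxifen-activated Cre recombinase in the epithelium, so neurons and glia were not the cells targeted, and loss of the enzyme cannot be told apart from presence of the active recombinase. The labels do not state that each library is a separate animal, and every p-value here rests on the spread among samples, which may be technical.

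The enteric nervous system is a network of neurons and glia in a myenteric plexus between the muscle layers and a submucosal plexus under the mucosa. It descends from neural crest cells that colonise the gut under the control of the receptor tyrosine kinase Ret and the transcription factor Sox10. Its neurons drive peristalsis, secretion and blood flow, with acetylcholine and tachykinins as main excitatory transmitters and vasoactive intestinal peptide and nitric oxide as main inhibitory ones, and its glia support the neurons and touch the mucosa.

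The 250 bases before the annotated start of Vip are shown because Vip had the smallest p of the 8 genes and because the human gene is a textbook example of induction by cyclic AMP. The sequence is from RefSeq, build GRCm38.p6, chr10:5638968-5639217, plus strand, with capitals marking 2 motifs searched on both strands, the core of the cyclic AMP response element (TGACG) and a TATA box (TATAAA), which do not overlap each other.
Vip: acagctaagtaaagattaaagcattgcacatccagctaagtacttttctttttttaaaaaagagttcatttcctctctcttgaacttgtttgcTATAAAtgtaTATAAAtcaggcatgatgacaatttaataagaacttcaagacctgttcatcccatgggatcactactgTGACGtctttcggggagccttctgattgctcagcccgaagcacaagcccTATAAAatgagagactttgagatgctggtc
TGACG occurred 1 time, ending 74 bases before the start, and TATAAA 3 times, ending 151, 141 and 24 bases before it. Windows of the same length held TGACG in 17.8% and TATAAA in 12.4% of 32851 RefSeq promoters of 27025 genes. The promoter table matched 5 of the 8 genes. The TGACG letters were also in a promoter of Elavl4 and of Nos1, and neither motif was in those of Uchl1 and S100b. These matches describe letters and say nothing of binding.

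Library totals lay between 102844680 and 128730695 counts, with 24559 to 26180 genes detected and 1.29% to 2.17% of counts on mitochondrial genes. Retsat, the gene deleted, stood at 15.4 to 33.4 CPM in RetSat ko libraries and 340 to 576 CPM in control libraries, where CPM is counts per 1000000 of the library size after TMM scaling. Pancreatic genes marked single libraries. The summed acinar markers reached 357 CPM in RetSat ko 1 and 1966 CPM in RetSat ko 2, against 0.592 to 9.39 CPM in the other RetSat ko libraries and 0.243 to 187 CPM in control libraries. The insulin gene Ins2 had 1888 counts in RetSat ko 1 and 1632 in RetSat ko 2, and at most 36 in any other library.

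None of the 8 genes was called different between RetSat ko and control jejunum. In edgeR's quasi-likelihood test with Benjamini-Hochberg adjustment over 18654 genes, 0 of the 8 passed an adjusted p of 0.05, and 0 had an unadjusted p under 0.05. Over all genes 6 were called, 0.0322% of those tested, and 2283 had an unadjusted p under 0.05. With limma-voom 0 of 8 were called and 0 had an unadjusted p under 0.05, with 0.0322% of all genes called. With sample weights in limma-voom 0 of 8 were called, with 0.0536% of all genes called. In that fit Elavl4 and Vip, 2 of the 8, had an unadjusted p under 0.05, as did 4155 of all 18654 genes. DESeq2 called 0 of the 4 members to which it gave an adjusted p, and 1.04% of the 11773 genes that had one, and 0 of the 8 had an unadjusted p under 0.05 with it. Fold changes are given on the log2 scale, RetSat ko over control. They were above 0 for 7 of the 8 genes, with Ret the exception, and lay between -0.04 and 0.66. Their median was 0.147, beside 0.020 over all genes tested, of which 53.9% were above 0. For each of the 8 genes the library values of the groups overlapped, and the share of all genes for which they do is not given here. In bulk tissue, fewer cells of a type and less RNA per cell cannot be told apart.

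**Figure D1:**
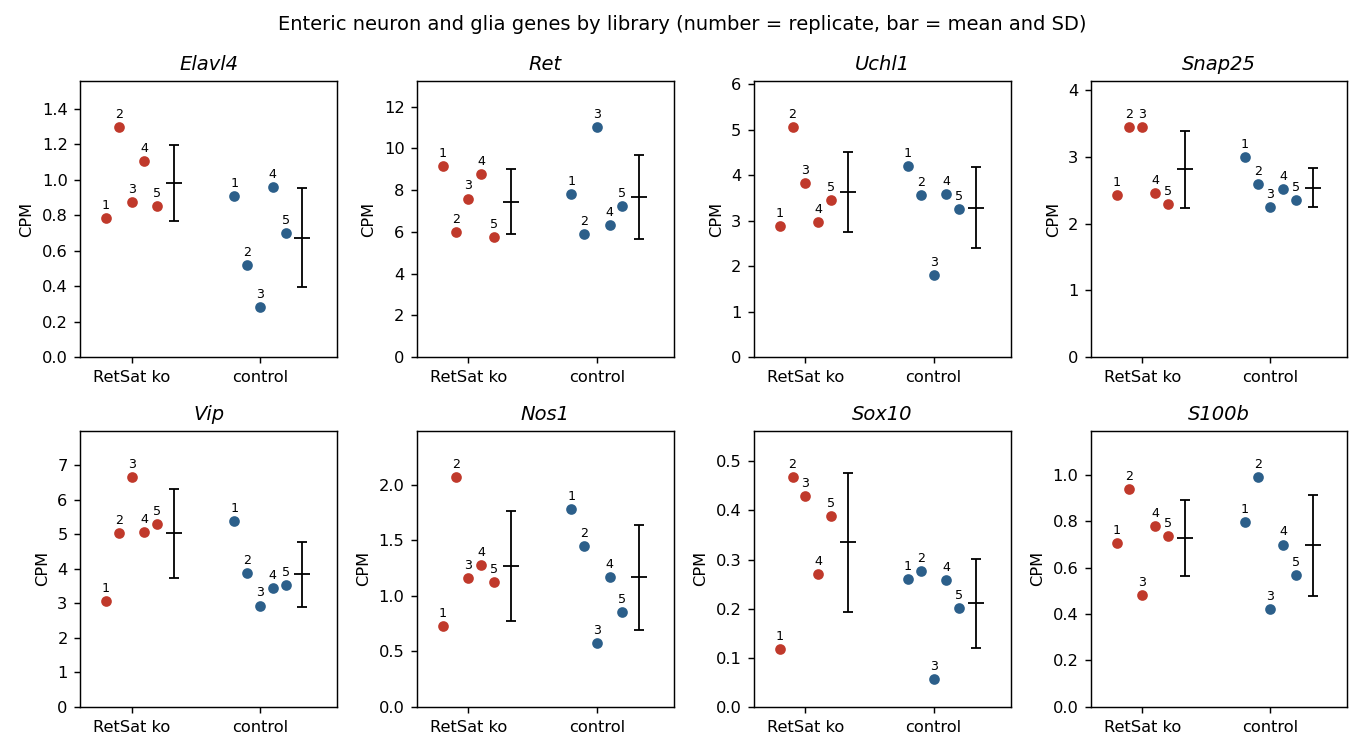
Level of each of the 8 genes in CPM (vertical axes, from 0) in the 5 RetSat ko libraries (left, red) and the 5 control libraries (right, blue); numbers are replicates and bars give the mean and SD. Control 3 is the lowest library for every gene except Ret, for which it is the highest with 11.0 CPM.

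Elavl4 (ENSMUSG00000028546.18, chr4:110060919-110209106, minus strand, GRCm39) encodes HuD, an RNA-binding protein of neurons. In RetSat ko 1 to 5 it stood at 0.784, 1.30, 0.875, 1.11 and 0.851 CPM, against 0.909, 0.522, 0.281, 0.958 and 0.698 CPM in control 1 to 5. All 5 RetSat ko libraries lay above the control mean, but control 1 and control 4 lay within the RetSat ko range. The means were 0.983 ± 0.214 CPM in RetSat ko and 0.674 ± 0.280 CPM in control (SD, n = 5 each). The log2 fold change was 0.55 ± 0.297 (SE; 95% interval -0.0998 to 1.19), with an edgeR adjusted p of 0.474. The exact permutation test on CPM values (two-sided) gave p = 0.0952, where the smallest p that 5 against 5 samples allow is 0.00794.

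Ret (ENSMUSG00000030110.14, chr6:118128706-118174679, minus strand, GRCm39) encodes the receptor for ligands of the GDNF family, on which the survival and migration of enteric neuron precursors depend. In mice it is also known from intestinal epithelial cells. RetSat ko 1 to 5 had 9.14, 6.00, 7.60, 8.78 and 5.76 CPM, against 7.83, 5.92, 11.0, 6.32 and 7.25 CPM in control 1 to 5. The highest value was that of control 3 and the lowest that of RetSat ko 5, and the groups lay over each other. RetSat ko averaged 7.46 ± 1.55 CPM and control 7.67 ± 2.02 CPM (SD, n = 5 each), giving a log2 fold change of -0.04 ± 0.185 (95% interval -0.443 to 0.362) with an edgeR adjusted p of 0.946. The gene lies on chromosome 6 between Retsat, 45.5 megabases away, and 3 other called genes farther along the chromosome, of which BC064078 is the nearest at 10.8 megabases. Within 1 megabase of Ret, 0 of 15 tested genes were called by edgeR and 1 had an unadjusted p under 0.05.

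Uchl1 (ENSMUSG00000029223.13, chr5:66833434-66844577, plus strand, GRCm39) encodes PGP9.5, a ubiquitin hydrolase abundant in neurons. It stood at 2.89, 5.06, 3.83, 2.97 and 3.45 CPM in RetSat ko 1 to 5, against 4.20, 3.56, 1.81, 3.59 and 3.25 CPM in control 1 to 5. RetSat ko 2 was the highest and control 3 the lowest, and the other 8 libraries lay between 2.89 and 4.20 CPM. Group means were 3.64 ± 0.879 CPM in RetSat ko and 3.28 ± 0.891 CPM in control (SD, n = 5 each), with a log2 fold change of 0.15 ± 0.220 (95% interval -0.331 to 0.625; edgeR adjusted p = 0.814). The antisense gene Uchl1os shares 295 bases, 18.1%, of the Uchl1 exons. It had 0 to 2 counts per library, but counting without a stated strand option cannot separate reads in the shared bases.

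Snap25 (ENSMUSG00000027273.14, chr2:136555373-136624348, plus strand, GRCm39) encodes a SNARE protein that fuses transmitter vesicles with the membrane, in neurons and in hormone-secreting cells. Its values were 2.43, 3.44, 3.45, 2.46 and 2.30 CPM in RetSat ko 1 to 5, against 3.00, 2.59, 2.24, 2.52 and 2.35 CPM in control 1 to 5. RetSat ko 2 and 3 stood above every control library, and the other RetSat ko libraries lay among the control libraries. The means were 2.82 ± 0.578 CPM in RetSat ko and 2.54 ± 0.292 CPM in control (SD, n = 5 each). The log2 fold change of 0.15 ± 0.156 had a 95% interval of -0.192 to 0.487 and an edgeR adjusted p of 0.728. Snap25 varied least over the 10 libraries, its highest value being 1.54 times its lowest.

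Vip (ENSMUSG00000019772.6, chr10:5589218-5597617, plus strand, GRCm39) encodes vasoactive intestinal peptide, which relaxes smooth muscle and stimulates secretion. It stood at 3.08, 5.03, 6.66, 5.05 and 5.31 CPM in RetSat ko 1 to 5, against 5.40, 3.87, 2.94, 3.45 and 3.53 CPM in control 1 to 5. RetSat ko 2 to 5 lay above control 2 to 5, while RetSat ko 1 lay below all control libraries but control 3. RetSat ko averaged 5.03 ± 1.28 CPM and control 3.84 ± 0.934 CPM (SD, n = 5 each). The log2 fold change was 0.39 ± 0.205 (95% interval -0.0556 to 0.836), with an unadjusted p of 0.0808 and an adjusted p of 0.459 in edgeR. The two-sided exact permutation test gave p = 0.151. Vip had the lowest adjusted p of the 8 genes.

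Nos1 (ENSMUSG00000029361.19, chr5:117919097-118096905, plus strand, GRCm39) encodes neuronal nitric oxide synthase, the enzyme of inhibitory motor neurons. Its levels were 0.725, 2.07, 1.16, 1.27 and 1.13 CPM in RetSat ko 1 to 5, against 1.78, 1.45, 0.580, 1.17 and 0.855 CPM in control 1 to 5. The lowest library was RetSat ko 1 in one group and control 3 in the other, and the groups lay over each other. The antisense gene Gm26995 shares 268 bases, 2.40%, of the Nos1 exons and had 0 to 4 counts per library. RetSat ko averaged 1.27 ± 0.494 CPM and control 1.17 ± 0.474 CPM (SD, n = 5 each), giving a log2 fold change of 0.12 ± 0.321 (95% interval -0.578 to 0.821; edgeR adjusted p = 0.902). Many inhibitory neurons hold both Vip and Nos1, so their ratio was computed within each library. There were 4.22 ± 1.21 Vip counts per Nos1 count in RetSat ko and 3.57 ± 1.01 in control (SD, n = 5 each; two-sided exact permutation p = 0.365).

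Sox10 (ENSMUSG00000033006.11, chr15:79039108-79049440, minus strand, GRCm39) encodes a transcription factor of neural crest cells that adult enteric glia keep. It stood at 0.118, 0.469, 0.429, 0.270 and 0.390 CPM in RetSat ko 1 to 5, against 0.260, 0.277, 0.0561, 0.259 and 0.202 CPM in control 1 to 5. RetSat ko 2, 3 and 5 lay above every control library and RetSat ko 1 lay below all but control 3. The means were 0.335 ± 0.143 CPM in RetSat ko and 0.211 ± 0.0909 CPM in control (SD, n = 5 each). Sox10 had the largest fold change of the 8 genes, 0.66 on the log2 scale, and the largest error, 0.428 (SE; 95% interval -0.266 to 1.59; edgeR adjusted p = 0.547). It was also the least abundant, with 12, 52, 50, 36 and 54 counts in RetSat ko 1 to 5 and 28, 36, 6, 30 and 22 counts in control 1 to 5. The exact 95% Poisson interval, which covers counting error only, was 6.20 to 21.0 for the 12 counts of RetSat ko 1 and 2.20 to 13.1 for the 6 counts of control 3.

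S100b (ENSMUSG00000033208.8, chr10:76089687-76096993, plus strand, GRCm39) encodes a calcium-binding protein of glia that adipocytes also make. The values were 0.705, 0.937, 0.480, 0.780 and 0.736 CPM in RetSat ko 1 to 5, against 0.797, 0.991, 0.421, 0.699 and 0.570 CPM in control 1 to 5. Control 2 was the highest and control 3 the lowest, with RetSat ko 3 next to it. RetSat ko averaged 0.728 ± 0.165 CPM and control 0.696 ± 0.217 CPM (SD, n = 5 each), and the log2 fold change was 0.06 ± 0.249 (95% interval -0.479 to 0.605; edgeR adjusted p = 0.938). The summed adipocyte markers lay between 130 and 234 CPM in RetSat ko and between 133 and 258 CPM in control. The glial marker Sox10 was also set against the neuronal Elavl4: there were 0.340 ± 0.143 Sox10 counts per Elavl4 count in RetSat ko and 0.315 ± 0.125 in control (SD, n = 5 each; two-sided exact permutation p = 0.770).

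Levels of different genes were compared per kilobase of exon. By control mean the order was Uchl1 with 2.01, Ret and Vip with 1.13 each, S100b with 0.469, Snap25 with 0.374, Elavl4 with 0.125, Nos1 with 0.105 and Sox10 with 0.0690 CPM per kilobase. In RetSat ko, Vip with 1.48 CPM per kilobase stood above Ret with 1.10, and the rest kept this order, from 2.23 for Uchl1 to 0.110 for Sox10. The library ranges of neighbours in this order overlapped in both groups, except between Vip and S100b and between Snap25 and Elavl4, and between Uchl1 and Ret in RetSat ko alone. By the order within RetSat ko, the range of Vip overlapped that of Uchl1, and that of Ret did not reach S100b. All 8 markers were detected in every library, from 6 counts for Sox10 to 1179 counts for Ret, both in control 3.

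Values of the 8 genes spread widely from library to library. The highest library stood 8.35 times above the lowest for Sox10, 4.63 times for Elavl4, 3.58 times for Nos1, 2.79 times for Uchl1, 2.36 times for S100b, 2.27 times for Vip and 1.92 times for Ret. Control 3 was the lowest library for 7 of the 8 genes and RetSat ko 2 the highest for 4 of them. Among the 7 genes other than Ret, the correlations of log2 CPM over the 10 libraries were all positive, with Pearson's r from 0.194 to 0.883 and a median of 0.680 over 21 pairs. The 7 correlations of Ret with them were all negative, from -0.793 to -0.280 with a median of -0.623. The points of these correlations share a library, its depth, its scaling and its tissue composition.

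**Figure D2:**
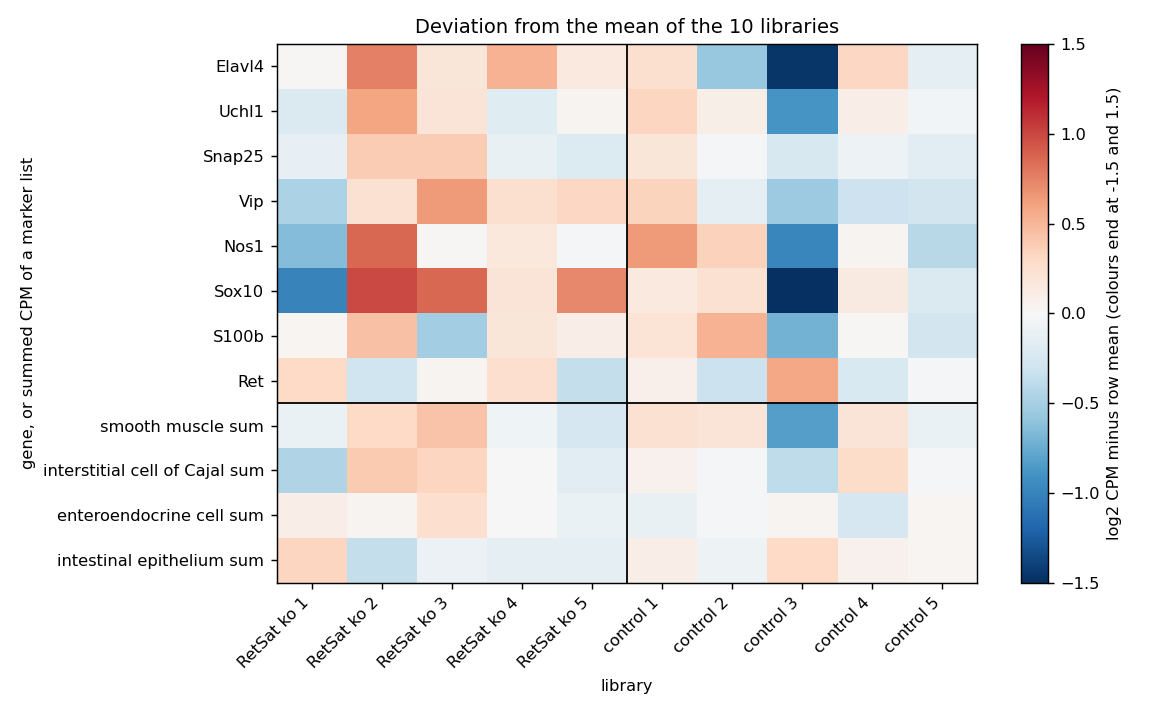
Deviation of each library from the mean of the 10 libraries in log2 CPM (colour, blue lower and red higher) for the 8 genes and for the summed CPM of 4 marker lists (rows), with RetSat ko libraries left and control libraries right of the line. The control 3 column is blue for the 7 genes other than Ret and for the smooth muscle sum, and red for Ret and the epithelium sum.

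Marker sums of some other cell types moved with some of these genes over the 10 libraries. The sum of 10 smooth muscle markers, none of which was at 0, lay between 833 and 1334 CPM in RetSat ko and between 557 and 1159 CPM in control, with its lowest value in control 3. The sum of 8 epithelial markers, also with none at 0, was 8790 to 14110 CPM in RetSat ko and 10700 to 13920 CPM in control, with its lowest value in RetSat ko 2 and its 2 highest in RetSat ko 1 and control 3. These last 2 libraries also had the smallest TMM factors, 0.889 and 0.903. Fits with the smooth muscle, adipocyte or acinar sum as covariate each called 0 of the 8 genes and 0.0322% of all genes, and the part of the epithelium sum in their values was not tested.

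Over the 10 libraries, Uchl1 followed the muscle sum with a Pearson's r of 0.888 and a Spearman's rho of 0.879, and with r = 0.746 without the 2 libraries farthest from the median. Snap25 had r = 0.774 and rho = 0.976, and r = 0.814 without those 2. Without control 3 alone, Uchl1 had r = 0.687 and Snap25 r = 0.875. Nos1 had r = 0.763, with 0.751 without the 2 farthest libraries and 0.581 without control 3. The values of Elavl4 (0.718, then 0.198 and 0.174), Sox10 (0.794, then 0.319 and 0.464) and Vip (0.589, then 0.101 and 0.394) were lower both times. S100b had r = 0.496, with 0.600 without the 2 farthest libraries and -0.0267 without control 3, so its value depended on which libraries were left out. Ret had r = -0.584 with the muscle sum, with -0.268 and -0.134 in the same order. With the epithelium sum Ret had r = 0.712 and rho = 0.661, with r = 0.635 without the 2 farthest libraries and 0.584 without control 3. The other 7 genes had r from -0.878 for Sox10 to -0.517 for S100b. Without the 2 farthest libraries their r lay between -0.876 for Sox10 and -0.213 for Snap25. Without control 3 it lay between -0.883 for Sox10 and -0.296 for S100b. With the sum of 16 enteroendocrine markers, 583 to 745 CPM in RetSat ko and 527 to 645 CPM in control, the 8 genes had r between -0.408 and 0.383. With the sum of 3 interstitial cell of Cajal markers, r lay between -0.570 for Ret and 0.782 for Sox10. In the same order, Elavl4 had 0.621, then 0.699 and 0.461, and Sox10 0.782, then 0.685 and 0.741. Vip had 0.601, then 0.470 and 0.485, and S100b 0.252, then 0.153 and -0.067. Uchl1 had 0.771, then 0.75 and 0.740, Snap25 0.762, then 0.735 and 0.720, and Nos1 0.743, then 0.556 and 0.650. Ret had -0.570, then -0.391 and -0.391. With the adipocyte sum r lay between -0.598 for Uchl1 and 0.618 for Ret, and with the B cell sum between -0.421 for Ret and 0.626 for Snap25.

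**Figure D3:**
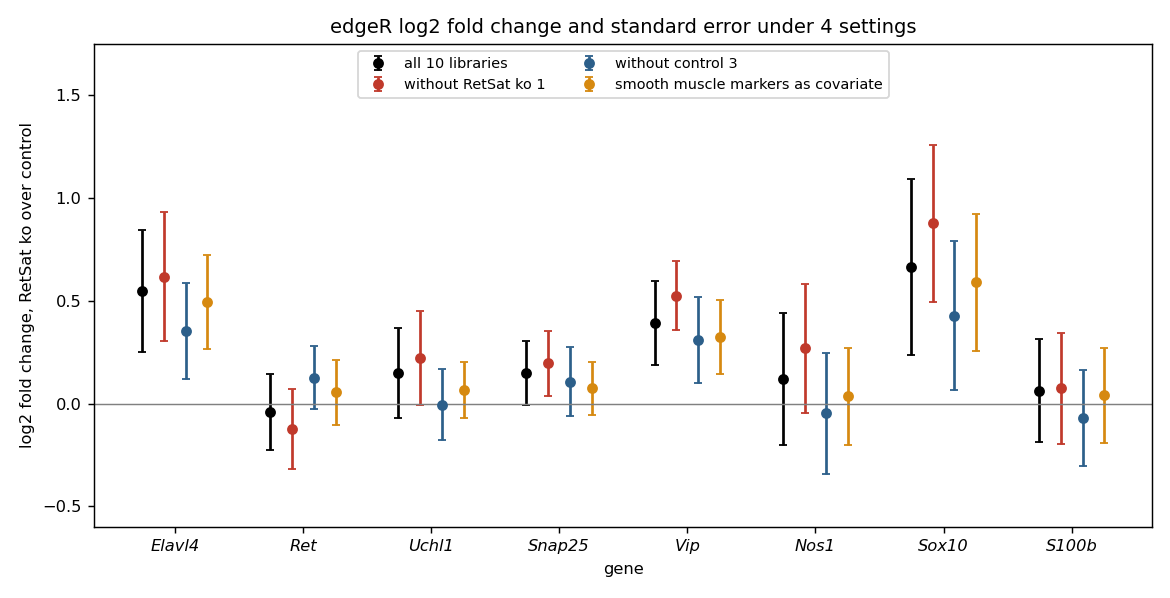
edgeR log2 fold change of each of the 8 genes, RetSat ko over control (vertical axis; bars give 1 standard error), with all 10 libraries, without RetSat ko 1, without control 3, and with the smooth muscle marker sum as covariate. Elavl4, Snap25, Vip and Sox10 stay above 0 under these 4 settings, while Ret lies above 0 without control 3 and with the covariate, and Uchl1, Nos1 and S100b lie below 0 without control 3.

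The fold changes were read again without control 3, without RetSat ko 1 and without both. Neither was flagged as an outlier. Dixon's test (critical value 0.71) was run within each group on the 8 genes and the muscle, enteroendocrine and epithelium sums. It flagged 0 of 22 sets of values. Without control 3 the log2 fold change was 0.35 for Elavl4, 0.31 for Vip and 0.43 for Sox10, and it changed sign for Ret (0.13), Uchl1 (-0.0048), Nos1 (-0.047) and S100b (-0.072). Without RetSat ko 1 it was 0.62 for Elavl4, 0.52 for Vip and 0.88 for Sox10. In that fit 4.45% of 19001 genes were called by edgeR and still 0 of the 8. The lowest adjusted p of any of the 8 genes under any alternative was 0.0921, for Vip in this fit (log2 fold change 0.52 ± 0.168, unadjusted p = 0.00988). With both libraries left out, 1.21% of genes and 0 of the 8 were called. With the muscle sum as covariate the log2 fold change was 0.49 for Elavl4, 0.32 for Vip, 0.59 for Sox10 and 0.055 for Ret, with edgeR adjusted p from 0.439 to 0.918. With the acinar sum as covariate Vip was at 0.45 (edgeR unadjusted p = 0.0455, adjusted p = 0.398) and Elavl4 at 0.46, and with the adipocyte sum Sox10 was at 0.72 (edgeR adjusted p = 0.412).

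The other genes of the enteric nervous system were counted in 8 lists of 85 genes, grouped by function, of which 77 had enough reads, 0 were called by edgeR and 5 had an unadjusted p under 0.05. Their log2 fold changes were above 0 for 55 and below 0 for 22, with a median of 0.14, beside 53.9% above 0 and a median of 0.020 over all genes, of which 0.0322% were called. Over all 18654 genes tested, 2283 had an unadjusted p under 0.05 in edgeR. The lowest edgeR adjusted p of the 77 was 0.291. Summed over the list, the cytoskeleton genes stood at 10.3 to 17.9 CPM in RetSat ko and 7.65 to 16.1 CPM in control, and the transmitter genes at 11.5 to 19.9 CPM in RetSat ko and 11.1 to 14.6 CPM in control. Both sums, and that of the presynaptic genes at 54.7 to 67.8 CPM in RetSat ko and 51.1 to 62.4 CPM in control, were lowest in control 3. Control 3 was the highest library for the sums of the neuron identity list (161 to 224 CPM in RetSat ko, 167 to 239 CPM in control), the enteric glia list (221 to 464 CPM in RetSat ko, 370 to 508 CPM in control), the Schwann cell list (65.1 to 232 CPM in RetSat ko, 70.9 to 423 CPM in control) and the VIP and nitric oxide receptor list (317 to 367 CPM in RetSat ko, 277 to 403 CPM in control). The GDNF and endothelin list summed to 134 to 158 CPM in RetSat ko and 147 to 162 CPM in control, with its highest value in control 4. These sums are weighted to their most abundant genes.

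**Figure D4:**
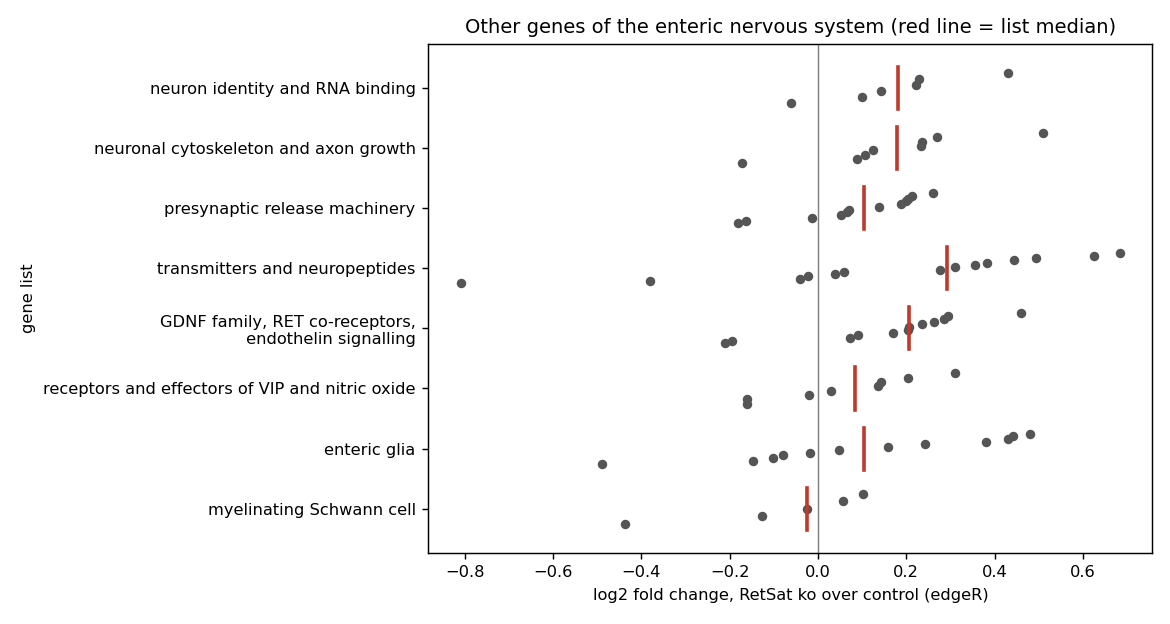
edgeR log2 fold change, RetSat ko over control (horizontal axis), of the 77 tested genes in 8 lists (rows); each point is a gene and the red line the median of its list. Medians lie between -0.02 for the myelinating Schwann cell list and 0.29 for the transmitter list, and 0 of the points are called.

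The list closest to Vip and Nos1 was that of transmitters and neuropeptides, with 14 of 16 genes tested, 10 above 0 and a median log2 fold change of 0.29. Gal, which encodes the neuropeptide galanin, had 0.862, 1.51, 1.51, 1.18 and 1.24 CPM in RetSat ko 1 to 5, against 1.30, 0.660, 0.711, 0.639 and 0.625 CPM in control 1 to 5. All 5 RetSat ko libraries lay above control 2 to 5, and control 1 lay within the RetSat ko range. Its log2 fold change was 0.68 ± 0.243 (edgeR unadjusted p = 0.0154, adjusted p = 0.321). Tac1, the gene of substance P, averaged 6.52 ± 1.56 CPM in RetSat ko and 4.79 ± 1.04 CPM in control (SD, n = 5 each), with a log2 fold change of 0.44 ± 0.185 (edgeR adjusted p = 0.369). Npy, the gene of neuropeptide Y, had a log2 fold change of 0.63 (edgeR adjusted p = 0.411).

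Chat, which encodes the enzyme that makes acetylcholine, had the lowest log2 fold change of this list. It had 0.147, 0.261, 0.197, 0.142 and 0.101 CPM in RetSat ko 1 to 5, against 0.195, 0.253, 0.337, 0.259 and 0.441 CPM in control 1 to 5. The groups overlapped, with control 1, 2 and 4 inside the RetSat ko range, and the highest values were those of control 5 and control 3. The log2 fold change was -0.81 ± 0.320 (edgeR unadjusted p = 0.0263, adjusted p = 0.353). Tuft cells of the epithelium also make Chat, and the sum of 6 tuft cell markers, none at 0, was 46.4 to 60.9 CPM in RetSat ko and 58.0 to 61.8 CPM in control; its part in the Chat values was not tested.

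Among the GDNF ligands, the co-receptors of Ret and endothelin signalling, all 12 genes were tested and 10 had log2 fold changes above 0. The co-receptor Gfra4 had a log2 fold change of 0.46, the ligand Nrtn 0.26 and the endothelin receptor Ednrb 0.21 (edgeR adjusted p from 0.567 to 0.609). Ece1, the enzyme that cleaves endothelin precursors, had 99.1, 95.0, 85.5, 92.0 and 90.7 CPM in RetSat ko 1 to 5, against 104.5, 103.3, 111.2, 103.4 and 106.4 CPM in control 1 to 5. Its groups did not overlap, and the share of all genes for which this holds is not given here. Its log2 fold change of -0.19 ± 0.0572 had an edgeR adjusted p of 0.291, the lowest of the 77 genes tested in the 8 lists. Without RetSat ko 1 that adjusted p was 0.0396, in the fit that called 4.45% of all genes.

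In the list of receptors and effectors of VIP and nitric oxide, 5 of 8 genes had log2 fold changes above 0, and the median was 0.084. Vipr1, a VIP receptor also known from epithelium, had -0.16, while Gucy1a1 and Gucy1b1, the subunits of the nitric oxide receptor, had 0.14 and 0.20 and Prkg1, the kinase downstream of it, had 0.31 (edgeR adjusted p from 0.618 to 0.765). The neuron identity list had 5 of 6 tested genes above 0, with Hand2, a transcription factor of autonomic neurons, at 0.22. Tlx2 was at 0.23 and Tbx3 at -0.06. Tbx3 had a level of 175 ± 26.4 CPM in RetSat ko and 182 ± 31.2 CPM in control (SD, n = 5 each), far above the other genes of the list. The cytoskeleton list had 7 of 8 above 0, with the neurofilaments Nefh at 0.51 and Nefm at 0.24, Mapt, the gene of tau, at 0.27 and Stmn2 at 0.23. The presynaptic list had 9 of 12 above 0, with the vesicle proteins Vamp1 at 0.26, Rab3a at 0.19 and Syp at 0.20. No gene of these 4 lists had an edgeR adjusted p below 0.438.

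Of the other enteric glia genes, 7 of the 12 tested had log2 fold changes above 0, with a median of 0.10. The sodium channel gene Scn7a had 0.44, the potassium channel gene Kcna1 had 0.48 and the ectonucleotidase gene Entpd2 had -0.15. Erbb3, the neuregulin receptor, had 431, 222, 264, 299 and 197 CPM in RetSat ko 1 to 5, against 337, 342, 479, 418 and 406 CPM in control 1 to 5. RetSat ko 2 to 5 lay below every control library and RetSat ko 1 above all but control 3. Its log2 fold change was -0.49 ± 0.194 (edgeR unadjusted p = 0.0275, adjusted p = 0.355), and its adjusted p was 0.0319 without RetSat ko 1. Erbb3 stood far above Sox10 in every library. Epithelial cells are also known to make it, and like the epithelium sum it had its 2 highest values in RetSat ko 1 and control 3. The myelinating Schwann cell list, a check for extrinsic nerve, had 2 of 5 tested genes above 0 and Pmp2 at 0 in every library. Its Pmp22 had a log2 fold change of -0.44 ± 0.722, Prx 0.10, Mag -0.13 and Mbp -0.02 (edgeR adjusted p from 0.836 to 0.909).

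The genes whose log2 CPM followed each marker most closely were looked up among 13227 genes of at least 1 mean CPM, as a description over 10 libraries that share depth and composition. Uchl1 was followed by Kcna2 (r = 0.974), Kcnma1 (r = 0.971) and Ttl (r = 0.971), and Nos1 by Kif1a (r = 0.966), Fgf13 (r = 0.962) and Eef1a2 (r = 0.950). For Snap25 the first was Napb (r = 0.963), which encodes another protein of vesicle fusion, ahead of Dpysl2 (r = 0.903) and Eid1 (r = 0.899). Kcna2 and Kcnma1 encode potassium channels, and Kif1a a motor of axonal transport.

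For Vip the closest were Tubb6 (r = 0.975), Mus81 (r = 0.928) and Cavin2 (r = 0.928). Sox10 was followed by Maged1 (r = 0.977), Prnp (r = 0.966) and Prickle2 (r = 0.964), Elavl4 by Cldn2 (r = 0.975), Ino80e (r = 0.935) and Arhgef28 (r = 0.930), and S100b by Fmr1 (r = 0.930), Sh3bp5l (r = 0.887) and Cpsf2 (r = 0.886). Ret had the lowest r with its closest gene, Ptdss1 (r = 0.911), followed by Slc31a1 (r = 0.899) and Dclre1b (r = 0.883), of which Slc31a1, a copper transporter gene, averaged 332 CPM. Each r is the highest found in that search. Without the 2 libraries farthest from the marker's median, r of these 24 genes lay between 0.712 for Eid1 with Snap25 and 0.958 for Tubb6 with Vip. None of the 24 was called by edgeR, with adjusted p from 0.400 to 0.998.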

How the data were processed

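The authors deposited raw gene counts, with a file for each library. Trimming used Trimmomatic and alignment used STAR on GRCm39 (mm39), per the submitters' processing notes. The counter was featureCounts 2.0.1 over exons of GENCODE release M28, per the file headers, each read going to the gene of largest overlap, with no option for strand, read pairs or several alignments, so reads of overlapping genes on opposite strands cannot be told apart. Library preparation used the NEBNext Ultra II RNA kit, per the labels.

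Genotypes were compared in R 4.3.3 with edgeR 4.0.16 after filterByExpr and TMM scaling, by the robust quasi-likelihood test without covariates and with Benjamini-Hochberg adjustment over 18654 genes at a threshold of 0.05. Symbols were matched for 52081 of 55414 gene identifiers (94.0%). For single values, exact permutation tests (two-sided) were run in scipy 1.17.1. Correlations are of log2 CPM (prior count 2), with marker sums taken as the log2 of the summed CPM without a prior count. The steps were tested on simulated data. Coordinates and exon lengths are those in the files, and every value column was used. Over the 45 pairs of libraries the chi-square per degree of freedom was at least 49.6, so none was a duplicate.

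The members and lists were chosen with earlier results of these data known. All 8 members are named, and of each list the called genes and up to 4 with the smallest unadjusted p, the 3 genes most correlated with each member, genes overlapping a member's exons and called genes near Ret. Some genes that this rule takes are not reported here. Marker lists of other cell types, summed in CPM, were enteroendocrine, islet, acinar, smooth muscle, interstitial cell of Cajal, fibroblast, adipocyte, mesothelium, B cell, epithelium and tuft cell.

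Other settings tried were DESeq2 1.42.0, limma-voom (limma 3.58.1) plain or with sample weights, scaling by RLE or upper quartile, keeping all genes or those of 1 CPM in 5 libraries, non-robust estimates, a block for replicate number, muscle, adipocyte or acinar sums as covariate, and each library left out. Leaving out control 3 and RetSat ko 1 together and halving the counts were added after seeing the data.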

Additional observations from a re-analysis of the deposited data

How the results depend on the processing

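Under all 24 alternatives 0 of the 8 genes were called, though DESeq2 gave an adjusted p to 4 of them and the filter of 1 CPM in 5 libraries kept 5. Of 189 gene values under alternatives, 176 kept their direction and 13 changed sign, none past the threshold on either side. Those 13 belong to Ret, Uchl1, Nos1 and S100b, whose fold changes were smaller than their errors. Ret was at 0.055 with the muscle covariate, 0.13 without control 3, 0.027 when RetSat ko 2 was left out, 0.039 when RetSat ko 5 was, and 0.038 when control 3 and RetSat ko 1 both were. Uchl1 was at -0.0048 without control 3 and -0.0013 without RetSat ko 2. Nos1 was at -0.047 without control 3 and -0.12 without RetSat ko 2. S100b was at -0.072 without control 3, -0.0013 without control 5, -0.044 without RetSat ko 2 and -0.066 with both libraries left out. Leaving out 1 library at a time gave log2 fold changes of 0.35 to 0.71 for Elavl4, -0.12 to 0.13 for Ret, -0.0048 to 0.25 for Uchl1, 0.064 to 0.21 for Snap25, 0.27 to 0.54 for Vip, -0.12 to 0.32 for Nos1, 0.43 to 0.88 for Sox10 and -0.072 to 0.23 for S100b. The number of the 8 genes above 0 was 5 to 8 in these fits and 4 of 5 with the 1 CPM filter, by construction.

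Over all genes, edgeR's 6 calls became 123 with DESeq2, 10 with limma-voom and sample weights, 228 without control 3 and RetSat ko 1 together, and 5 to 846 when 1 library was left out, with 846 without RetSat ko 1; the cause was not tested. With the replicate number as block there were 4 calls, 0 of them among the 8 genes, 7 of which stayed above 0. Deviations of same-numbered libraries from their group means correlated at 0.0021, -0.047, -0.13, -0.15 and -0.082. Those of differently numbered libraries correlated at -0.363 to 0.367. These values show no likeness by number, but cannot decide whether equal numbers mark paired libraries. At 6 to 54 counts, Sox10 is the gene that depth limits most.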

Other observations

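Most of the low counts were even numbers. Of the counts between 1 and 100, 62.5% to 65.2% were even in each library, and so were 61 of the 80 counts of the 8 genes (76.3%), among them all 10 of Sox10. Read pairing was not given in the sources used here. Halved, the 6 counts of Sox10 in control 3 are 3, with an exact 95% Poisson interval of 0.619 to 8.77, in place of 2.20 to 13.1 for 6 counts. The 12 counts of RetSat ko 1 are then 6, with an interval of 2.20 to 13.1 in place of 6.20 to 21.0. With all counts halved and rounded, edgeR called 5 genes and 0 of the 8.

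The markers of other wall cells were spread as follows. The interstitial cell of Cajal sum was 8.96 to 16.1 CPM in RetSat ko and 9.45 to 14.8 CPM in control, the fibroblast sum 119 to 234 CPM in RetSat ko and 161 to 217 CPM in control, and the mesothelium sum 2.61 to 10.7 CPM in RetSat ko and 1.64 to 14.8 CPM in control. The B cell sum reached 133 CPM in RetSat ko 2 and 58.0 CPM in control 4, and the islet sum was 0.332 to 29.3 CPM in RetSat ko and 0.655 to 1.35 CPM in control.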
